A study of Mus musculus with 16 samples.

Results

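The 89 genes described here carry the symbols of cytosolic ribosomal proteins. They were chosen by symbol, as protein-coding genes named Rpl or Rps followed by a digit, or Rplp0, Rplp1, Rplp2 or Rpsa, with pseudogenes and the Rps6k kinases left out. They make up 89 of the 24467 genes counted in each library. Of these, 77 are core ribosomal proteins, 46 of the large and 31 of the small subunit, and 8 are paralogs of a core protein (Rpl3l, Rpl7l1, Rpl10l, Rpl22l1, Rpl36al, Rpl39l, Rps27l and Rps27rt). Another 3, Rpl32l, Rpl37rt and Rps23rg1, were classed as retrocopies, while Rps27rt, with the same ending as Rpl37rt, was kept with the paralogs. The remaining 1, Rps19bp1, fits the letters of the rule but encodes a binding partner of Rps19 and is no part of the ribosome. The members lie on 19 chromosomes, with 14 of them on chromosome 7. All 77 core genes passed the filter on low counts, and 86 of the 89 members did.

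Bulk RNA was sequenced from 16 libraries of cancer cells sorted by flow cytometry out of orthotopic pancreatic tumours. The tumours grew from 1 mouse pancreatic ductal adenocarcinoma line, KPC 7TCF-eGFP/Porcn-DMA, so every group carries the same line and the same reporters. A 7TCF-eGFP reporter makes green protein where TCF factors drive transcription after a WNT signal. Porcn adds the lipid that WNT ligands need for secretion. The groups, each of 4 libraries numbered 1 to 4, were double-positive cells (DP), cells with green fluorescence alone (GFP), cells with mScarlet alone (mScarlet) and double-negative cells (DN). By design these gates separate WNT-responsive, WNT-secreting, double-positive and double-negative cells from 4 mice a group, but no label says in words what mScarlet marks, and none of the sources read gives the strain, age or treatment of the hosts. The question for each pair of groups was how the transcriptomes of the gates differ.

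Each ribosome holds 1 copy of nearly every ribosomal protein, and mammalian cells make these proteins in matched amounts, mostly from 1 gene each with many processed pseudogenes elsewhere in the genome. Their mRNAs are among the most abundant of growing cells and begin with a 5′ terminal oligopyrimidine (TOP) tract, a C followed by a run of pyrimidines, through which mTOR and Larp1 control their translation. Transcription of these genes and of the ribosome assembly factors rises with MYC activity in many tumours.

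Library totals ran between 80647185 and 104273669 counts, and 15476 to 17805 genes had at least 1 count. Levels are given as CPM, counts scaled to a fixed library total, with TMM-scaled library sizes, and 3 counts came to between 0.0284 and 0.0388 CPM. Of 12 epithelial and PDAC markers, 9 had a count in every library, with Krt8 and Krt19 among them, but Epcam lay between 0 and 0.474 CPM and Cldn7 between 0 and 1.41 CPM in 15 libraries, against 28.97 and 44.45 CPM in GFP library 4. That library also held 27163.65 CPM of the summed acinar markers and 12815.41 CPM of the fibroblast markers, and GFP library 1 held 37952.29 CPM of the macrophage and 4538.13 CPM of the erythroid markers. These GFP libraries stand apart from the rest, and the core medians, calls and marker counts of comparisons with GFP cells are given with and without them. In bulk RNA, fewer cells of a type and less RNA per cell cannot be told apart.

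The core ribosomal protein genes together held between 1.3229% and 2.432% of all counts. The share was 1.3229%, 1.5773%, 1.5424% and 1.6063% in DP libraries 1 to 4, and 1.4419%, 1.5718%, 1.5151% and 1.6233% in GFP libraries. In mScarlet libraries it was 1.3896%, 1.4748%, 1.8251% and 2.0117%, and in DN libraries 1.9767%, 1.7482%, 1.7679% and 2.432%. Every DP and every GFP library lay below every DN library, GFP libraries 2 and 3 included, whereas mScarlet libraries 3 and 4 reached into the DN range. The means were 1.512% ± 0.129 in DP, 1.538% ± 0.0778 in GFP, 1.675% ± 0.293 in mScarlet and 1.981% ± 0.318 in DN cells (SD, n = 4 each).

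The level of the median core gene told the groups apart less clearly. The median over the 77 genes of log2(CPM + 1) was 6.73 ± 0.22 in DP, 6.79 ± 0.28 in GFP, 6.86 ± 0.34 in mScarlet and 7.01 ± 0.25 in DN cells (SD, n = 4 each), and the groups overlapped. Library 4 was the highest of its group in all 4 groups, at 7.04 in DP, 7.19 in GFP, 7.31 in mScarlet and 7.38 in DN cells. It was the highest library for 52 of 77 core genes in DP, 57 in GFP, 64 in mScarlet and 74 in DN cells. Within a library number, DP lay below DN by log2 differences of -0.41, -0.13, -0.24 and -0.33 for numbers 1 to 4, and GFP lay below DN by -0.29, -0.11, -0.28 and -0.18. For mScarlet against DN the differences were -0.40, -0.22, 0.08 and -0.07, so that 3 of 4 numbers had the lower level in mScarlet cells.

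**Figure D1:**
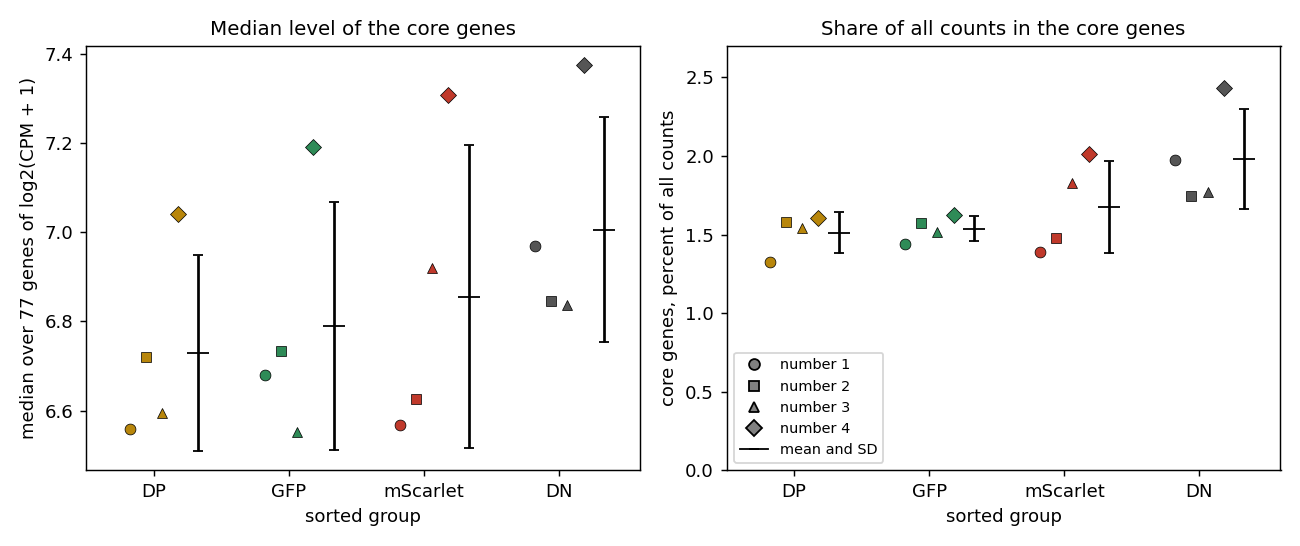
Level of the 77 core ribosomal protein genes in each of 16 libraries, as the median of log2(CPM + 1) (left, axis not starting at 0) and as percent of all counts (right), with the mean and SD of each group. All DP and GFP libraries lie below all DN libraries in the share of counts, and library 4 is the highest of every group in the left panel.

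The balance of the subunits was much the same in the 4 gates. The ratio of large-subunit to small-subunit counts averaged 1.348 ± 0.042 in DP, 1.314 ± 0.025 in GFP, 1.332 ± 0.032 in mScarlet and 1.34 ± 0.024 in DN cells (SD, n = 4 each). All 16 libraries fell between 1.291 and 1.403, and the groups overlapped.

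Levels of single ribosomal protein genes were far from equal. Per kilobase of exon, the 4 highest core genes were Rplp0 at 1456.51, Rps2 at 950.76, Rplp1 at 721.59 and Rps14 at 675.05 CPM, averaged over the 16 libraries. Rplp0 and Rplp1 belong to the stalk of the large subunit that recruits elongation factors, and Rps2 and Rps14 sit in the small subunit. The 5 lowest were Rpl26 at 0.13, Rps27 at 4.83, Rps15a at 6.94, Rpl30 at 7.48 and Rpl13a at 21.87 CPM per kilobase. For Rps15a the exon length used was 5395 bases, against a transcript of 640 bases, so its low rank depends on the length chosen. Rps15a averaged 37.43 CPM before division by length. Ranks among the highest genes depend on the length as well. Rps14 had 1118 bases of exon against a transcript of 597 bases, and Rpl32 had 963 against 517 bases. Without division by length, 44 of 77 core genes averaged at least 100 CPM, 3 averaged under 10 CPM, and 2, Rplp0 and Rps2, averaged 1977.94 and 1097.18 CPM. Rplp0 alone held 11.83% of the counts of all core genes, and the 5 genes with most counts held 31.31%.

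The lowest values went with sequence shared with other genes for some members only. The share of 100-base windows of a transcript that occur in no transcript of another gene had a median of 56.98% over the core genes, and 35 of 77 lay below 50%. The 11 core genes with under 20% unique windows had a median of 52.57 CPM per kilobase, the 41 genes between 20% and 75% a median of 105.08, and the 25 genes at 75% or more a median of 241.70. Over the 77 genes, Spearman's rho between the 2 measures was 0.295, given as a description, since all points share the same libraries. Rps27 had 1.63% unique windows, but Rpl26 had 63.23%. Rpl26 held only 135 counts over the 16 libraries. In mScarlet library 2 it had 0.026 CPM, below the 0.0388 CPM that 3 counts came to there. No source read says how the authors treated reads that match several genes, so levels of members with few unique windows are uncertain.

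**Figure D2:**
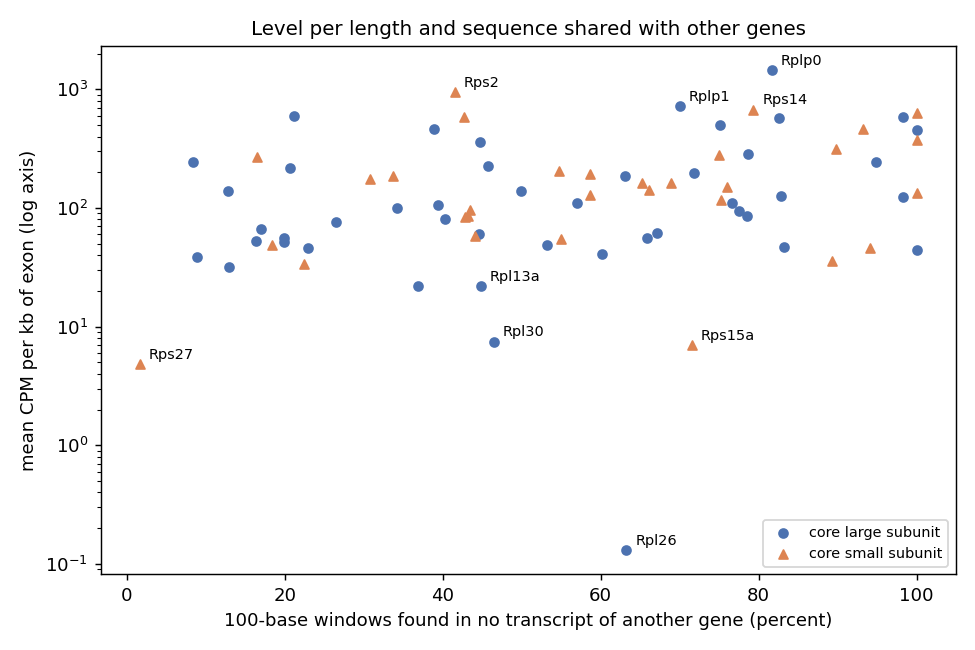
Mean CPM per kilobase of exon (log axis) of 77 core genes against the percent of 100-base transcript windows found in no other gene, with large-subunit genes as circles and small-subunit genes as triangles. Genes with few unique windows reach lower levels on the whole, yet Rps2 is high with 41.51% and Rpl26 is the lowest of all with 63.23%. Rpl26 held only 135 counts over the 16 libraries.

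The core genes varied together from library to library. Pearson's r of a gene with the mean of the other core genes over 16 libraries had a median of 0.869 and was at least 0.8 for 55 of 77, a description in which all points share their library and its scaling. The highest r was 0.979. Rpl30 stood apart with r = -0.078, and only 3 core genes had r under 0.5. The SD of log2(CPM + 1) had a median of 0.29, and it was largest for Rpl23 (0.43), Rpl30 (0.42), Rps12 (0.41), Rpl5 (0.40), Rpl13a (0.40) and Rpl37 (0.39). Among 8021 genes with at least 10 CPM on average, the genes outside the list most like the core mean were Ndufab1 (r = 0.958), Mrps25 (r = 0.951) and the pseudogene Rpl31-ps12 (r = 0.944), over 16 libraries.

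**Figure D3:**
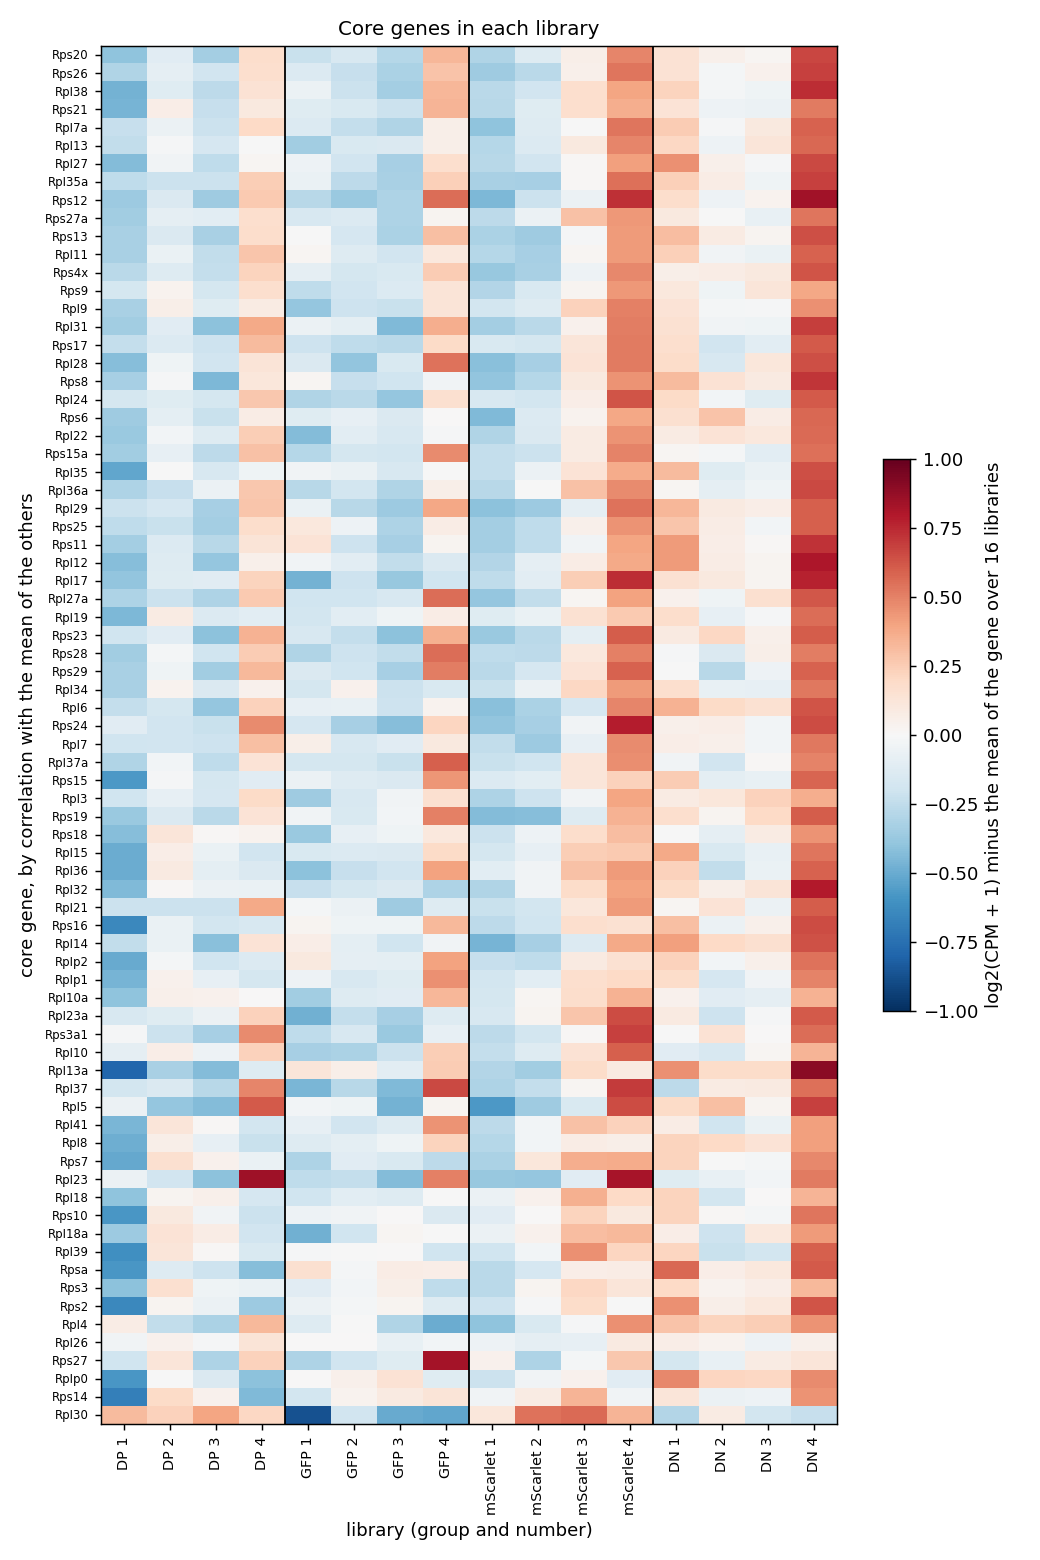
Deviation of log2(CPM + 1) from the mean of each gene, for 76 core genes (rows, by correlation with the mean of the others) in 16 libraries (columns, grouped as DP, GFP, mScarlet and DN), on a colour scale that stops at -1 and 1. DN library 4 and mScarlet library 4 are high for most genes, DP library 1 is low, and Rpl30 in the last row does not follow the rest.

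DN cells had the highest group mean of CPM for 67 of 77 core genes. The highest mean lay in mScarlet cells for 7, in DP cells for 2 and in GFP cells for 1. The lowest mean lay in DP cells for 48 core genes, in GFP cells for 28 and in mScarlet cells for 1. These counts describe group means and take no account of the spread between libraries.

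Between DP and DN cells, ribosomal protein genes were on the whole lower in DP, and 3 of them passed the test. Rplp0, the P-stalk base of the large subunit, fell to 0.652 times its DN level. Rpsa, a small-subunit protein also known as a laminin receptor, fell to 0.621 times, and Rpl13a, a large-subunit protein that in human monocytes also takes part in silencing inflammatory mRNAs, fell to 0.536 times. Of the 77 core genes, 73 had a lower fitted level in DP, as had 48.2% of all genes, with a median log2 fold change of -0.32 against 0.02 over all 15963 genes tested. All 31 core small-subunit genes were fitted lower in DP, as were 42 of 46 core large-subunit genes. Without DN library 4 the core median was -0.19.

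Rplp0 had 1301.56, 1938.29, 1761.28 and 1462.95 CPM in DP libraries 1 to 4, against 2714.57, 2251.62, 2246.78 and 2696.50 CPM in DN libraries. No DP library reached any DN library. The log2 fold change was -0.62 with SE 0.13 (edgeR quasi-likelihood test, Benjamini-Hochberg adjusted p = 0.0231). Rpsa had 270.11, 371.07, 351.65 and 302.07 CPM in DP, against 602.91, 424.30, 437.23 and 619.97 CPM in DN libraries, again without overlap, and its log2 fold change was -0.69 with SE 0.15 (edgeR adjusted p = 0.0243). Rpl13a had 13.35, 18.81, 17.39 and 21.67 CPM in DP, against 33.13, 27.14, 27.26 and 45.36 CPM in DN libraries, without overlap, and a log2 fold change of -0.90 with SE 0.21 (edgeR adjusted p = 0.0337). For all 3 genes DP library 1 was the lowest and DN libraries 1 and 4 were the highest.

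**Figure D4:**
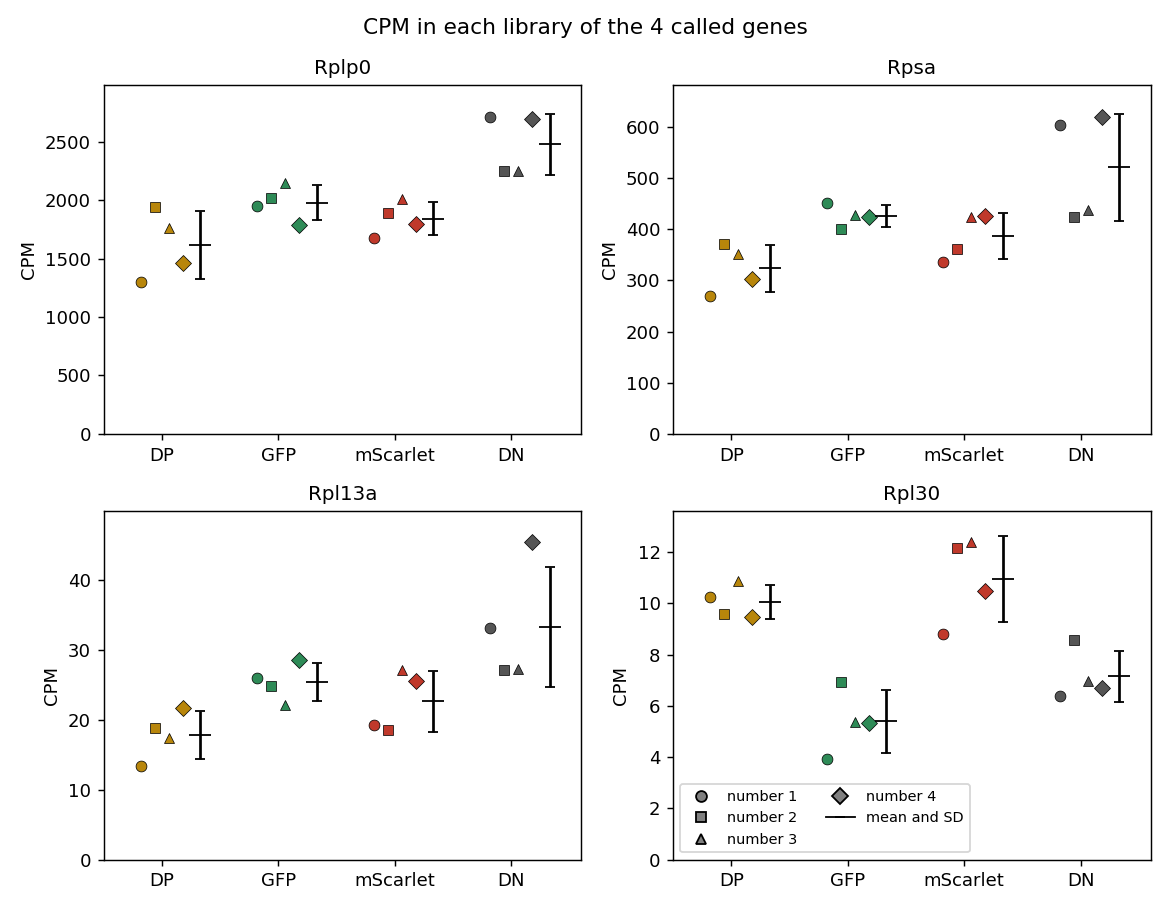
CPM of Rplp0, Rpsa, Rpl13a and Rpl30 in each library, by group and library number, with the mean and SD of each group (n = 4). For the first 3 genes all DP libraries lie below all DN libraries, and for Rpl30 all DP and mScarlet libraries lie above all GFP and DN libraries. The share of all genes with the split of Rpl30 was not counted.

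The 3 genes that fell are 3.5% of the 86 members tested, and 1.71% of all genes tested fell in the same comparison. The calls rest on few libraries, since without DP library 1, DN library 1 or DN library 4 no member passed, and without DP library 3 only Rplp0 did. Without the 4 libraries numbered 4, only Rpl6 passed. With the library number as a block, 12 members fell, or 14.0% of members against 3.9% of all genes. Beside the same 3 these were the large-subunit genes Rpl6, Rpl8, Rpl12 and Rpl14, the small-subunit genes Rps2, Rps6, Rps19 and Rps20, and Rps19bp1. No member rose under either fit.

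Of the members that fell only with the block, Rps2 averaged 913.59 ± 186.57 CPM in DP and 1355.47 ± 260.34 CPM in DN cells (SD, n = 4 each). Its DP libraries had 688.58, 1095.06, 1035.14 and 835.57 CPM, all below the DN libraries at 1477.38, 1123.75, 1156.66 and 1664.09 CPM. The blocked log2 fold change was -0.58 (edgeR adjusted p = 0.0458, against 0.0788 without the block). Rps6, the substrate of the S6 kinases, had 179.80, 215.73, 197.55 and 242.87 CPM in DP libraries, against 258.46, 280.46, 243.20 and 343.17 CPM in DN libraries, where DP library 4 came within 1 CPM of DN library 3 without overlap. Rps19, known from Diamond-Blackfan anaemia in humans, had 164.75, 192.22, 176.77 and 233.74 CPM in DP libraries and 238.69, 217.18, 244.06 and 324.96 CPM in DN libraries, which overlap because DP library 4 exceeds DN library 2. Rps19bp1 averaged 34.08 ± 5.39 CPM in DP and 48.88 ± 9.72 CPM in DN cells (SD, n = 4 each).

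Counts that need no model were as follows. DP libraries lay wholly below DN libraries for 11 of 86 members (12.8%), against 7.37% of all genes, and wholly above for Rpl30 alone, against 5.68% of all genes. In each of the 4 numbers the DP library was below the DN library for 47 members (54.7%), against 16.3% of all genes. Unadjusted p lay under 0.05 for 24 of 86 members, against 15.8% of all genes. The core genes varied together from library to library, so counts of members are not independent observations, here or in the other comparisons.

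Of the 12 members that fell with the block, 10 had a promoter entry in RefSeq. Their sequences are shown because TOP control of these mRNAs is read from the bases at the transcription start. Each line gives 30 bases before and 20 bases from the annotated start, 5′ to 3′ on the gene's strand, in build GRCm38.p6, and capitals mark a tract of a C and at least 4 further pyrimidines that begins within 5 bases of the start.
Rpl13a, chr7:45128726-45128775, minus strand: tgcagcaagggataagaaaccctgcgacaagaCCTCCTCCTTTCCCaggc
Rpl12, chr2:32961682-32961731, plus strand: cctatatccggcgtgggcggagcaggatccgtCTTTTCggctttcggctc
Rpl14, chr9:120571487-120571536, plus strand: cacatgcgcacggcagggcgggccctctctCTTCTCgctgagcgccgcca
Rps6, chr4:86857348-86857397, minus strand: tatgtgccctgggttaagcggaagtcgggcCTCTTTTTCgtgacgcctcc
Rps2, chr17:24720033-24720082, plus strand: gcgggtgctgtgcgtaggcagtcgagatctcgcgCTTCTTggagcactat
Rplp0, chr5:115559437-115559486, plus strand: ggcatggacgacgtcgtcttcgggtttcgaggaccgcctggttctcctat
Rpsa, chr9:120127736-120127785, plus strand: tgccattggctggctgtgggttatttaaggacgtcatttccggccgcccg
Rpl6, chr5:121204471-121204520, plus strand: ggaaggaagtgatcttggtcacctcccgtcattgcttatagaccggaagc
Rps19, chr7:24884562-24884611, plus strand: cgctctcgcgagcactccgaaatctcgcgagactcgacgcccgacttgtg
Rps19bp1, chr15:80264287-80264336, minus strand: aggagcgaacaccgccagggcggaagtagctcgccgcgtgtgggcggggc

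Among these 10, a tract was found at Rpl13a, Rpl12, Rpl14, Rps6 and Rps2, and none at Rplp0, Rpsa, Rpl6, Rps19 and Rps19bp1. The search was made on the gene's strand, and a window without a match says only that these letters are not there. Of the 57 core genes with a promoter entry, 26 (45.6%) held such a tract, against 18.7% of 17491 protein-coding genes and 15 of 69 mitochondrial ribosomal protein genes (21.7%). With the tract required at the annotated start itself, the counts were 12 of 57 core genes (21.1%), 2.17% of protein-coding genes and 0 of 69 mitochondrial ribosomal protein genes. The median log2 fold change of core genes with and without a tract is given without a test. It was -0.33 for 26 genes with and -0.29 for 31 genes without in DP against DN, -0.26 with and -0.32 without in GFP against DN, and -0.18 with and -0.19 without in mScarlet against DN.

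Between GFP and DN cells, nearly all ribosomal protein genes were fitted lower in GFP, but none passed the test. Of the 77 core genes, 76 had a negative log2 fold change, as had 47.7% of all genes, with a median of -0.29 against 0.02 over all genes. The exception was Rps27. No member was called by edgeR, with or without the block, by DESeq2 (1.39% of all genes called) or by limma voom, and 18 of 86 had an unadjusted p under 0.05, against 9.72% of all genes. The background was 0% of all genes called, and with the block 0.00626% were called lower, so the test had few calls for any gene. GFP libraries lay wholly below DN libraries for 15 members (17.4%), against 2.28% of all genes, and GFP was below DN in each of the 4 numbers for 62 members (72.1%), against 11.6%. Since the members varied together, these counts do not stand for as many separate observations. The core median was -0.39 without GFP libraries 1 and 4 and -0.17 without DN library 4.

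The 4 members with the smallest p in this comparison were Rpl32, Rpl4, Rpl17 and Rpl12, all of the large subunit. Rpl32 had 365.51, 379.59, 387.23 and 346.38 CPM in GFP libraries, against 490.01, 446.17, 468.66 and 742.78 CPM in DN libraries, with a log2 fold change of -0.54 and SE 0.18 (edgeR adjusted p = 0.415). Rpl4, which lines the exit tunnel for the growing chain, had 332.43, 362.16, 295.19 and 257.32 CPM in GFP libraries, against 443.92, 424.28, 432.73 and 496.98 CPM in DN libraries (log2 fold change -0.53, edgeR adjusted p = 0.436). Neither gene's libraries overlapped between the groups. Rpl17, another exit-tunnel protein, averaged 47.87 ± 4.41 CPM in GFP and 73.25 ± 19.43 CPM in DN cells, and Rpl12 averaged 53.74 ± 3.32 CPM in GFP and 76.48 ± 20.46 CPM in DN cells (SD, n = 4 each). Rplp0 had 1950.54, 2017.53, 2149.13 and 1788.33 CPM in GFP libraries, all below the 4 DN libraries, and its log2 fold change was -0.33 with SE 0.13 (edgeR adjusted p = 0.47). Without GFP libraries 1 and 4 the log2 fold changes were -0.50 for Rpl32, -0.47 for Rpl4, -0.61 for Rpl17 and -0.57 for Rpl12, each with an edgeR adjusted p of 0.666.

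Between mScarlet and DN cells most ribosomal protein genes were fitted lower in mScarlet, and the size of the difference turned on single libraries. Of the 77 core genes, 69 were fitted lower in mScarlet, as were 50.3% of all genes, with a median log2 fold change of -0.16 against 0.00 over all genes, and that median was -0.04 without DN library 4 and -0.35 without mScarlet library 4. No member passed edgeR's test, where 0.695% of all genes fell, and 5 of 86 had an unadjusted p under 0.05, against 14.2% of all genes. DESeq2 called 2, Rplp0 lower and Rpl30 higher, against 4.17% of all genes called, and in the fit with the block Rps19 alone fell, or 1.2% of members against 2.9% of all genes. mScarlet was below DN in each of the 4 numbers for 20 members (23.3%), against 14.6% of all genes. Rplp0 had 1672.33, 1894.49, 2006.64 and 1794.56 CPM in mScarlet libraries, against 2246.78 to 2714.57 CPM in DN libraries. Its log2 fold change was -0.43 with SE 0.13 (edgeR adjusted p = 0.137). Rps19 averaged 195.37 ± 53.90 CPM in mScarlet and 256.22 ± 47.27 CPM in DN cells (SD, n = 4 each; blocked edgeR adjusted p = 0.0298).

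These 3 comparisons share the DN libraries, so a high DN library lowers all of them at once. The values of the most changed members stand side by side as follows. The log2 fold change of Rplp0 was -0.62 in DP, -0.33 in GFP and -0.43 in mScarlet against DN. That of Rpsa was -0.69, -0.29 and -0.43 in the same order, and that of Rpl13a was -0.90, -0.39 and -0.55.

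Between DP and GFP cells no member passed edgeR's test, where 0.564% of all genes were called. The core genes split, with 48 of 77 fitted lower in DP, against 53% of all genes, and a median log2 fold change of -0.06, against -0.04 over all genes. That median turned to 0.08 without GFP libraries 1 and 4, to 0.11 without GFP library 4 alone, and to 0.01 either without DP library 1 or with scaling by total counts alone. Unadjusted p lay under 0.05 for 4 of 86 members, against 15.9% of all genes. DP libraries lay wholly below GFP libraries for 3 members, Rpl13a, Rps16 and Rpsa, or 3.5% against 4.58% of all genes. Rpsa had 452.12, 400.57, 427.97 and 424.78 CPM in GFP libraries, above the DP range of 270.11 to 371.07 CPM, with a log2 fold change of -0.40 and SE 0.15 (edgeR adjusted p = 0.198). Rpl13a had 26.02, 24.89, 22.05 and 28.58 CPM in GFP libraries, above the DP range of 13.35 to 21.67 CPM, with a log2 fold change of -0.51 and SE 0.21 (edgeR adjusted p = 0.239). Rpl30 was wholly higher in DP, as were 3.52% of all genes. It rose with the block (edgeR adjusted p = 0.0231, against 0.0735 without it), where 2.13% of all genes rose, and in DESeq2, where 1.41% rose. In this comparison DP library 2 did not correlate best with the GFP library of its own number.

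Between DP and mScarlet cells no gene of any kind passed edgeR's test, with or without the block, so the background was 0%. No member was called by DESeq2 either, where 0.319% of all genes were, and none had an unadjusted p under 0.05, against 2.88% of all genes. Of the 77 core genes, 74 were fitted lower in DP, as were 50.8% of all genes, with a median log2 fold change of -0.16 against -0.01 over all genes, and it was -0.01 without mScarlet library 4. DP was below mScarlet in every number for 6 of 86 members, against 8.33% of all genes, and the within-number differences of the core median were -0.01, 0.09, -0.33 and -0.27 for numbers 1 to 4. The 4 smallest p values were those of Rpl18, Rpsa, Rpl13a and Rps14, each with an edgeR adjusted p of 1. Rps14 averaged 655.50 ± 180.67 CPM in DP and 795.90 ± 102.10 CPM in mScarlet cells, and Rpl18 averaged 188.02 ± 26.53 CPM in DP and 224.05 ± 28.34 CPM in mScarlet cells (SD, n = 4 each).

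Between GFP and mScarlet cells only Rpl30 passed. It fell to 0.493 times its mScarlet level in GFP cells, with a log2 fold change of -1.02 and SE 0.22 (edgeR adjusted p = 0.0367). This is 1.2% of members, against 0.47% of all genes that fell. Of the 77 core genes 63 were fitted lower in GFP, as were 48.9% of all genes, with a median log2 fold change of -0.11 against 0.02 over all genes. That median turned to 0.08 without mScarlet library 4 and was -0.22 without GFP libraries 1 and 4, where 71 of 77 were fitted lower and no member passed. Values of the next members by p were -0.54 for Rpl23a (edgeR adjusted p = 0.163), -0.53 for Rpl17 (0.2) and -0.37 for Rps7 (0.271). With the block Rpl23a fell as well, where 3.01% of all genes fell.

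**Figure D5:**
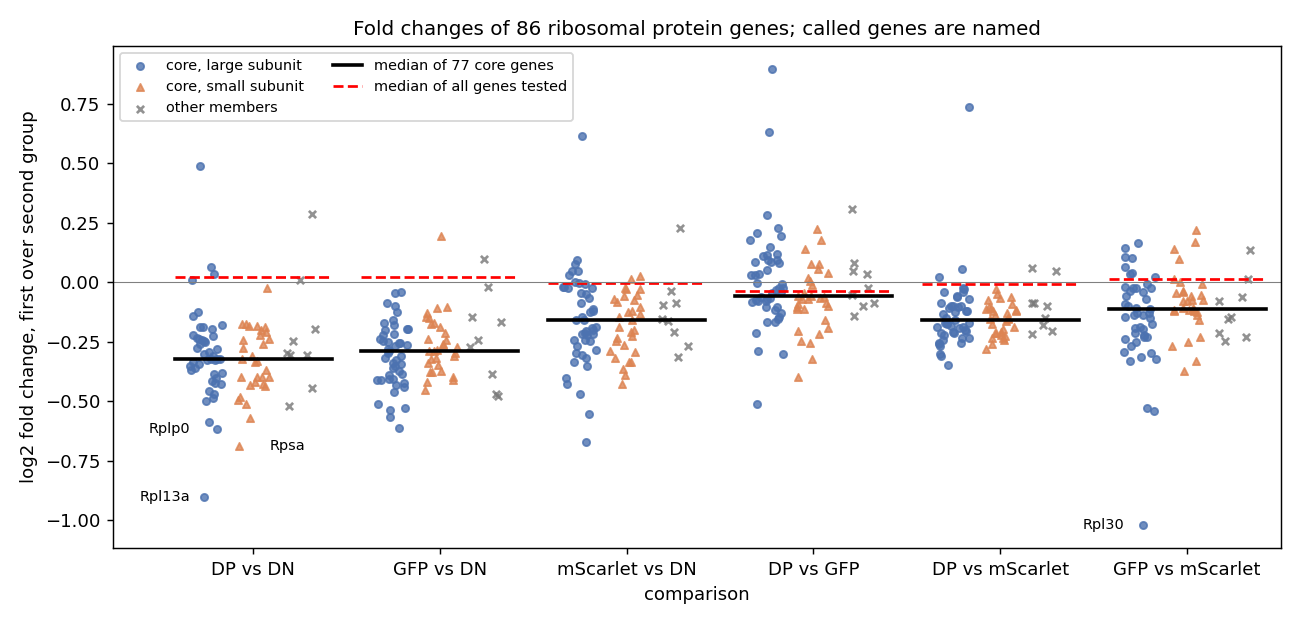
Log2 fold changes of 86 ribosomal protein genes in 6 comparisons, first over second group, with the median of 77 core genes (solid line) and of all genes tested (dashed line). The core median lies below the all-gene median in every comparison, least so for DP against GFP, and called genes are named.

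Rpl30, a large-subunit protein whose yeast counterpart binds its own transcript, was the core gene least correlated with the others. It had 10.24, 9.60, 10.89 and 9.46 CPM in DP libraries and 8.79, 12.17, 12.38 and 10.47 CPM in mScarlet libraries. In GFP libraries it had 3.95, 6.92, 5.39 and 5.33 CPM, and in DN libraries 6.38, 8.58, 6.96 and 6.69 CPM. All 8 DP and mScarlet libraries lay above all 8 GFP and DN libraries. The share of all genes with this split was not counted, so the split cannot be called particular to Rpl30. By pairs of groups, 5.68% of all genes lay wholly higher in DP than in DN, and 3.52% wholly higher in DP than in GFP. For the pairs with mScarlet cells the share is not given. The log2 fold change was 0.49 with SE 0.22 in DP against DN (edgeR adjusted p = 0.288), 0.61 with SE 0.22 in mScarlet against DN (0.204), -0.41 in GFP against DN (0.566) and -0.12 in DP against mScarlet (1). The call between GFP and mScarlet cells was lost without either GFP library 1 or 4, without both, and without any of mScarlet libraries 1, 2 or 3 or DP libraries 1, 2 or 3. Of its transcript windows 46.5% were unique and 10 other genes shared one, so reads of those genes cannot be told apart from its own in part of the transcript.

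An interaction term asked whether the difference between green and non-green cells was other with mScarlet (DP minus mScarlet) than without it (GFP minus DN). Of the 77 core genes 64 had a positive term, with a median of 0.14 against -0.04 over all genes. Without GFP libraries 1 and 4 it was positive for 72 of 77, with a median of 0.28 against 0.05 over all genes, and again no gene passed. No gene passed edgeR's test, so the background was 0%, and no member had an unadjusted p under 0.05, against 3.29% of all genes.

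The p53-linked and ubiquitin-linked members did not pass the test. Rpl5 and Rpl11, which bind the 5S RNA and restrain Mdm2 when assembly fails, averaged 75.53 ± 28.12 and 63.05 ± 12.47 CPM in DP, against 94.81 ± 19.43 and 76.52 ± 17.06 CPM in DN cells (SD, n = 4 each). Their log2 fold changes were -0.33 (edgeR adjusted p = 0.625) and -0.28 (0.544). Rps27a, made as a fusion with ubiquitin, averaged 145.42 ± 21.59 CPM in DP and 171.91 ± 35.23 CPM in DN cells (adjusted p = 0.556 by edgeR). Of 12 genes of the p53 response fixed as a list, 9 were fitted higher in DP than in DN with a median of 0.27, and none was called.

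The paralogs ran from nearly uncounted to higher than their partner. Rps27l, a p53-induced copy, averaged 162.95 CPM per kilobase of exon, against 4.83 for Rps27, whose few unique windows make its level uncertain. On the CPM scale Rpl7l1 averaged 128.93, Rpl22l1 31.70, Rpl36al 7.18 and Rps27rt 0.30 CPM over the 16 libraries. Rpl3l, Rpl10l and Rpl39l, known from muscle and testis, did not pass the filter, with at most 0.232, 0.0111 and 0.198 CPM in any library. Rpl10l was at 0 in every library but DN libraries 2 and 3. The retrocopies Rpl37rt, Rpl32l and Rps23rg1 averaged 154.68, 65.32 and 40.27 CPM. For Rpl37rt and Rpl32l no transcript windows were available, so sequence they share with Rpl37 and Rpl32 was not measured, and these levels are uncertain.

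No paralog ratio passed its test between groups. For Rpl22l1 over Rpl22, Rps27l over Rps27, Rpl36al over Rpl36a and Rpl7l1 over Rpl7, the log2 ratio within a library was compared in 6 comparisons by two-sided exact permutation tests, whose smallest possible p with 4 against 4 libraries is 0.0286. Over these 24 tests none passed after Benjamini-Hochberg adjustment. The smallest p was 0.0571, for Rpl36al over Rpl36a in DP against DN, with log2 ratios of -1.37, -1.68, -2.07 and -1.32 in DP libraries and -2.14, -1.94, -2.15 and -2.13 in DN libraries (exact permutation test, adjusted p = 0.8). DP library 3 lies inside the DN range and the other 3 lie above it.

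Genes that work with the ribosome were read from lists beside the members. Of 25 genes of RNA polymerase I and ribosome assembly, 22 were fitted lower in DP than in DN, against 48.2% of all genes, with a median log2 fold change of -0.43 against 0.02 over all genes, and 3 fell, where 1.71% of all genes did. Grwd1, a histone-binding assembly factor, fell to 75.69 ± 15.60 CPM in DP, against 134.89 ± 14.61 CPM in DN cells (SD, n = 4 each; log2 fold change -0.83, SE 0.15, edgeR adjusted p = 0.00972). Pes1, of the complex that processes large-subunit RNA, fell to 105.80 ± 3.85 CPM in DP, against 151.08 ± 18.27 CPM in DN cells (SD, n = 4 each; -0.51, SE 0.11, edgeR adjusted p = 0.0231). Rrp9, of the U3 particle, had a log2 fold change of -0.76 with SE 0.18 (edgeR adjusted p = 0.0343), and with the block 8 genes of this list fell, Myc among them, where 3.9% of all genes fell. In mScarlet against DN 23 of 25 were fitted lower with a median of -0.31, and none passed without the block. With it Grwd1, Nop16 and Pes1 fell, where 2.9% of all genes fell. In GFP against DN 21 of 25 were fitted lower with a median of -0.17, and none passed with or without the block.

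Other parts of the translation machinery were read in the same way, with no test between lists. Of 21 TOP translation factors 17 were fitted lower in DP than in DN, with a median of -0.25, and none passed without the block and Eef1d alone with it. Of 77 mitochondrial ribosomal protein genes tested 66 were fitted lower in DP with a median of -0.16, against 73 of 77 and -0.32 for the core cytosolic genes, and none passed without the block and Mrpl11 and Mrps27 with it. The 3 listed ribosomal proteins that the symbol rule misses were all fitted lower in DP, with a median of -0.44, and none was called. Of these, Fau and Rack1 had log2 fold changes of -0.44 and -0.52 in DP against DN (edgeR adjusted p = 0.176 and 0.0918). Of 17 tested genes of translation initiation and TOP control, 9 were fitted lower in DP and 1 fell: Eif4ebp1, the mTOR-controlled repressor of cap binding, with 81.37 ± 25.87 CPM in DP and 185.84 ± 54.53 CPM in DN cells (SD, n = 4 each; log2 fold change -1.19, SE 0.27, edgeR adjusted p = 0.0294).

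Markers of other cells also varied between libraries and groups. The summed macrophage markers ran between 3287.99 and 11542.41 CPM in DP libraries, 3007.67 and 37952.29 CPM in GFP libraries, 1384.23 and 3739.77 CPM in mScarlet libraries, and 1195.5 and 5272.02 CPM in DN libraries. All 15 macrophage markers had a count in every library, 14 of 15 were fitted higher in DP than in DN and 15 of 15 higher in GFP than in DN, and none was called. Without GFP libraries 1 and 4, 13 of 15 were fitted higher in GFP than in DN. The 12 fibroblast markers summed to between 576.59 and 792.86 CPM in DP, 1505.41 and 12815.41 CPM in GFP, 572.99 and 722.9 CPM in mScarlet, and 901.28 and 2395.26 CPM in DN libraries. Of these, 6 (Fap, Lum, Pdgfra, Pdgfrb, Postn and Thy1) were at 0 in some library. All 12 were fitted lower in DP than in DN and none was called, and all 12 were fitted lower in mScarlet than in DN, where Pdgfrb fell. All 12 were fitted higher in GFP than in DN with none called, and higher in GFP than in mScarlet, where Col1a1, Col1a2, Col3a1 and Pdgfrb rose. Without GFP libraries 1 and 4, 8 of 12 were higher in GFP than in DN and 11 of 12 higher in GFP than in mScarlet, and none was called in either. The 14 acinar markers summed to between 46.82 and 187.89 CPM in DP, 377.09 and 27163.65 CPM in GFP, 68.01 and 1400.74 CPM in mScarlet, and 93.15 and 916.84 CPM in DN libraries, with Ptf1a and Rbpjl among those at 0 in some library. Of the 13 tested, 12 were fitted lower in DP than in DN and 13 higher in GFP than in DN, or 12 without GFP libraries 1 and 4, and none was called. The part of these cells in the ribosomal protein differences was not tested.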

How the data were processed

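The deposited tables give raw counts of reads per gene and library, under Entrez identifiers, of which 24437 of 24467 matched a symbol. Per the submitters' processing notes, the authors used build GRCm38 (mm10), STAR and DESeq2 1.24.0, and no source read gives the counter, annotation or strand setting. Per the labels' protocols, full-length cDNA from low-input RNA was amplified by PCR, so counts are not independent molecules and the floor of 3 counts covers counting error only.

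Differences were tested with edgeR 4.0.16 (quasi-likelihood, robust, TMM scaling, filterByExpr by group) in R 4.3.3, 1 fit of all 16 libraries with group as the only term, Benjamini-Hochberg adjusted over 15963 genes, called at adjusted p under 0.05. DESeq2 1.42.0 and limma 3.58.1 served as alternatives, and the closing section gives the effect of the others. SE is the log2 fold change divided by the root of F. Ratios and figures used Python 3.11.15. Exon lengths and transcript windows came from GENCODE vM21 and promoters from RefSeq GRCm38.p6, where 69 of 89 members had an entry.

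Same-numbered libraries deviated together, with r of at least 0.126 in all comparisons but GFP against mScarlet (r = 0.092 for number 4). DP library 2 did not correlate best with GFP library 2 (r = 0.126), nor GFP library 1 with mScarlet library 1 (r = 0.168). Blocked values stand beside the others for some of the results where they change a call, and not for all. No 2 replicates agreed within sampling noise (chi-square over its degrees of freedom at least 91.79). The labels do not say that equal numbers share a mouse.

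Members, lists and tests were chosen with earlier results of these data known. The genes named are the called members or, where fewer than 4 were called, the 4 of smallest p in each comparison, every paralog and Rps19bp1, the 5 highest and 5 lowest core genes per kilobase, the 6 of largest SD, members of known role, called genes of the other lists, and the 3 genes most like the core mean. Other members named were chosen after their values were seen. Some genes that these rules name are not reported here.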

Additional observations from a re-analysis of the deposited data

Results flagged for a closer look

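Within groups of 4 libraries, 13 values lay apart from the other 3 by Dixon's criterion, among 132 groups of named members. The criterion is a gap over range past its critical value for 4 samples, and chance alone flags about 5%. Some named members, with Rpl23, Rpl37, Rps12 and Rpl5 among them, were chosen for their large SD over these same libraries. The core genes also varied together, so the count of flags cannot be judged against that 5%. Of the 13 values, 12 were the highest library of their group, and all 12 were libraries numbered 4.

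In DN library 4, Rpl32 stood at 742.78 CPM, against 446.17 to 490.01 CPM in the other DN libraries, and Rpl17 stood at 102.18 CPM, against 60.59 to 66.44 CPM. Rps15a stood at 54.18 CPM in the same library and at 51.23 CPM in GFP library 4, with the other GFP libraries between 29.85 and 32.28 CPM. Rpl23 was flagged in 3 groups, at 158.25 CPM in GFP library 4, 197.61 CPM in mScarlet library 4 and 159.71 CPM in DN library 4. Rpl37 was flagged at 96.93 CPM in DP library 4 and at 109.26 CPM in GFP library 4. GFP library 4 was also highest for Rplp1 at 487.27 CPM, Rps27 at 4.619 CPM and Rps12 at 45.1 CPM. The 1 low value was Rpl5 in GFP library 3, at 54.23 CPM, against 73.46 to 77.25 CPM in the other GFP libraries.

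GFP library 4 also held the highest sums of acinar and fibroblast markers, 27163.65 and 12815.41 CPM. The part of those cells in its ribosomal protein levels was not tested.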

How the results depend on the processing

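The core median kept its sign in every alternative run for DP, GFP and mScarlet against DN and for DP against mScarlet, with ranges of -0.42 to -0.19, -0.40 to -0.17, -0.35 to -0.04 and -0.25 to -0.01. It changed sign for DP against GFP (-0.17 to 0.11) and GFP against mScarlet (-0.23 to 0.08). The count of members called in DP against DN was 3, became 6 with DESeq2 (3.55% of all genes called lower) and 12 with the replicate block, and ran from 0 to 3 with each library left out. It was 1 without the libraries numbered 4, with or without the block, an alternative chosen after seeing the data. For mScarlet against DN the count was 0, became 2 with DESeq2, 1 with the replicate block, and 0 to 1 with each library left out. It was 1 without the libraries numbered 4 and 2 with the block as well. For DP against GFP it was 0, became 1, Rpl30, with DESeq2, with the replicate block and with edgeR's bias-adjusted test (also chosen after seeing the data), and 0 to 1 with each library left out. For GFP against mScarlet it was 1 and became 0 with no filter, with quality weights in limma voom, with only the 2 groups fitted, without GFP libraries 1 and 4, and without the libraries numbered 4. It ran from 0 to 1 with each library left out and was 2 with the replicate block (3.01% of all genes called lower), where the numbers did not all deviate together and 3 of 4 correlated best with their own number. The block changed no other count of members called, and counts for GFP against DN, DP against mScarlet and the interaction stayed at 0. Calls held in 25 of 32 alternatives for Rpl13a (adjusted p 0.00107 to 0.137) and Rpsa (0.000651 to 0.114), 26 for Rplp0 (0.000271 to 0.112) and 19 for Rpl30 between GFP and mScarlet (1.56e-05 to 0.345). The cause was not tested. With each library left out, paralog ratio differences changed sign for Rpl22l1 over Rpl22 in DP against DN (-0.0757 to 0.0564), Rpl36al over Rpl36a in GFP against mScarlet (-0.1343 to 0.1551), and Rpl7l1 over Rpl7 in DP against GFP (-0.0648 to 0.135), DP against mScarlet (-0.1652 to 0.0147) and mScarlet against DN (-0.1316 to 0.0911). They also did for Rps27l over Rps27 in DP against GFP (-0.2397 to 0.2347), DP against mScarlet (-0.1473 to 0.0777), GFP against DN (-0.4223 to 0.0521) and GFP against mScarlet (-0.2468 to 0.2276). Depth limits few members, since 3 counts lie below 0.04 CPM, but reads shared with pseudogenes and retrocopies limit the levels of those with few unique windows.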
